A study of Mus musculus with 137 samples.

Results

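The embryos described here are single mouse embryos that received SR1848 and NR5A2 mRNA and whose libraries held GFP, set against embryos that received SR1848 alone. Libraries labelled SR1848_NR5A2OE were selected on their GFP level: the 2 GFP entries of the count table had to sum to at least 100 CPM (counts divided by the library total and multiplied by 1000000). Of the 67 libraries with this label among the 137 of the series, 42 were taken (17 in experiment 1 and 25 in experiment 2), and they are called GFP-positive below. They were compared with 40 libraries labelled SR1848 (16 and 24). The 14 other injected libraries that were usable had less than 100 CPM of GFP (9 and 5) and are called GFP-low. Another 16 libraries labelled DMSO, all of experiment 1, are given for reference.

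Each library is 1 embryo of the B6129F1 strain at the 2 cell stage, made by SmartSeq2 from polyadenylated RNA with oligo-dT priming. Zygotes were isolated 5 hours post fertilization and cultured without oil, because SR1848 is hydrophobic, in KSOM, a medium for early mouse embryos. From 6 hours post fertilization the medium of the SR1848 embryos held SR1848 at 10 µM. The GFP-positive and GFP-low embryos had the same SR1848 treatment and NR5A2 mRNA at 500 ng/µl, and the DMSO embryos had the solvent at 0.1%. The labels name no embryos injected without NR5A2 mRNA and none injected without SR1848, so that the injection, the NR5A2 mRNA and the choice of embryos with GFP cannot be told apart as sources of a difference. The labels do not say which embryos had the same parents, so p-values measure only the spread between these embryos, which may be in part technical.

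NR5A2 is an orphan nuclear receptor that binds DNA as a monomer at an extended recognition site and is found in ovary, liver, pancreas and the early embryo. SR1848 is a small molecule used as an inhibitor of NR5A2. In the mouse, the main wave of transcription from the embryo's own genome begins at the 2-cell stage, while RNA laid down in the oocyte is removed. The series title places NR5A2 in this activation, and the comparison asks which RNAs differed when NR5A2 mRNA was added to embryos held in the inhibitor.

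Library totals ran from 3383462 to 6481041 counts (median 4552160) in GFP-positive embryos and from 3762220 to 7888072 (median 4894577) in SR1848 embryos. Markers of the oocyte were present in both: Padi6, an enzyme of the oocyte's cytoplasmic lattices, had a median of 246 CPM in GFP-positive and 298 in SR1848 embryos, and Oog1 had 3076 and 2887. Markers of the 2-cell stage did not all go the same way. Obox3, Zscan4c and Zscan4d had medians of 1.91, 5.45 and 11.5 CPM in GFP-positive and 2.79, 7.67 and 16.7 in SR1848 embryos. In DMSO embryos they had 61.7, 7.545 and 24.3, so Zscan4c in SR1848 embryos was at the DMSO level. Zscan4f had medians of 19.0 CPM in GFP-positive, 127 in SR1848 and 25.2 in DMSO embryos, and Pramef8 had 63.55, 62.1 and 15.9. The injected libraries 22 of experiment 1 and 27 and 40 of experiment 2 and the SR1848 library 8 of experiment 1 held 145058 to 621489 counts and were left out. Some libraries of experiment 2 went against their labels. The injected libraries 1 to 8 of that experiment held 0 to 0.452 CPM of GFP and were left out, while 7 of the 10 DMSO libraries of that experiment held 295.5 to 7075 CPM, which is why DMSO values are from experiment 1.

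GFP and Nr5a2 chose or were given to the embryos, so their levels are a description. GFP ran from 1426 to 10270 CPM (median 4139) in the 42 GFP-positive embryos, from 0 to 70.8 (median 5.94) in GFP-low embryos and from 0 to 3.23 (median 0.134) in SR1848 embryos. The 3 embryos just inside the minimum of 100 CPM had 1426, 2138 and 2282 CPM, and the 3 just outside had 70.8, 38.7 and 32.7, so no embryo lay near it. Nr5a2 transcripts (ENSMUSG00000026398) ran from 1691 to 8463 CPM (median 3526) in GFP-positive embryos, from 5.37 to 97.0 (median 17.4) in GFP-low embryos, from 3.90 to 29.5 (median 13.2) in SR1848 embryos and from 93.3 to 189.5 (median 115) in DMSO embryos. Every GFP-positive embryo thus stood above every embryo of the other sets for both RNAs. The ratio of Nr5a2 to GFP lay between 0.581 and 1.19 with a coefficient of variation of 12.0%, although each of the RNAs varied by 36.5% or more between embryos.

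Hist2h2be, a gene for histone H2B (ENSMUSG00000068854, chromosome 3, 96221119 to 96223738 on GRCm38), moved with GFP in the same way and is described with it. It ran from 527 to 4036 CPM (median 1560) in GFP-positive embryos, from 0 to 19.1 (median 2.90) in GFP-low embryos, from 0 to 3.73 (median 0) in SR1848 embryos and from 0 to 0.606 in DMSO embryos. Its ratio to GFP lay between 0.322 and 0.493 in all 42 embryos, with a coefficient of variation of 8.70%, against 41.6% for Hist2h2be itself. Whether these reads came from an injected RNA or from the gene was not tested, and Hist2h2be is given no weight in the results below.

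**Figure D1:**
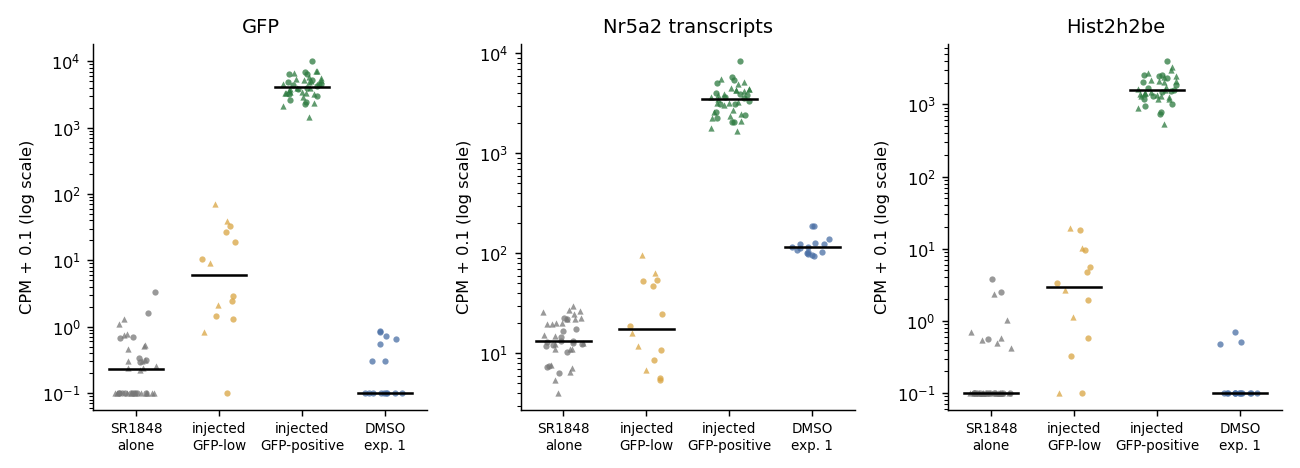
GFP, Nr5a2 transcripts and Hist2h2be in each embryo, as CPM plus 0.1 on a log scale. Circles are experiment 1, triangles experiment 2 and bars the median of each set. The 42 GFP-positive embryos stand above all others in each panel, from 1426 CPM for GFP, 1691 for Nr5a2 and 527 for Hist2h2be.

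Across 13848 genes tested with edgeR's quasi-likelihood test, with experiment as a term and Benjamini-Hochberg adjustment at 0.05, 3514 genes (25.4%) were higher in GFP-positive than in SR1848 embryos and 2389 (17.3%) were lower. Of the genes that changed over 2-fold, more were higher: 2123 of the higher genes and 455 of the lower genes passed 1 on the log2 scale. The balance depended on low genes and on the scaling: among genes with a mean of at least 10 CPM, 1840 were higher and 1835 lower, and scaling by total counts gave 3054 and 2839. The median log2 fold change over all genes was 0.09. These are shares of each library, so that less of 1 RNA and more of the others cannot be told apart. Scaling to the list of maternal transcripts instead, a group of RNAs stored in the oocyte, moved the median by 0.54 to 0.63 and gave 8100 higher and 519 lower genes. Of the 3514 higher and 2389 lower genes, 953 and 774 also passed in the same direction in each experiment alone. Only 4631 of all called genes were tested in both experiments.

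Sets that overlap little mark the genes with the clearest difference. In 4 higher genes every GFP-positive embryo stood above every SR1848 embryo, and in 1 lower gene every one stood below. They were picked out after their values were seen, and Hist2h2be is 1 of the 4. Gal and Crygs, at or near 0 in SR1848 embryos, passed the filter on low counts through GFP-positive embryos. Gal encodes galanin, a neuropeptide (ENSMUSG00000024907, chromosome 19, 3409915 to 3414544 on GRCm38). It ran from 2.97 to 70.0 CPM (median 24.5) in GFP-positive embryos and from 0 to 2.27 (median 0) in SR1848 embryos, a log2 fold change of 6.80 ± 0.41 (SE; edgeR adjusted p = 5.00e-25). GFP-low embryos reached a median of 3.00 CPM and DMSO embryos 0.186. The GFP-positive embryos were also above the GFP-low ones, by 3.28 on the log2 scale (edgeR adjusted p = 2.53e-06).

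Crygs, which encodes a crystallin of the eye lens, had a count in all 42 GFP-positive embryos (0.217 to 18.0 CPM, median 3.55) and in none of the 40 SR1848 embryos. With 3 counts over the whole SR1848 set as a floor, its level was at least 282-fold higher. Cxcr2, a chemokine receptor (ENSMUSG00000026180), ran from 13.8 to 124 CPM (median 39.5) in GFP-positive embryos and from 0.675 to 12.5 (median 4.63) in SR1848 embryos (log2 fold change 3.07 ± 0.19, edgeR adjusted p = 6.01e-24). Its median in GFP-low embryos was 25.6 CPM, and the difference of 0.63 between GFP-positive and GFP-low embryos did not pass the test (edgeR adjusted p = 0.0716). Eif2b1, a subunit of the exchange factor that recycles the initiation factor eIF2, was the gene below in every embryo: 54.3 to 194 CPM (median 125.5) against 201.6 to 575 (median 371), a log2 fold change of -1.49 ± 0.09 (edgeR adjusted p = 3.3e-26). GFP-low embryos had a median of 141 CPM of Eif2b1 and DMSO embryos 312.

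**Figure D2:**
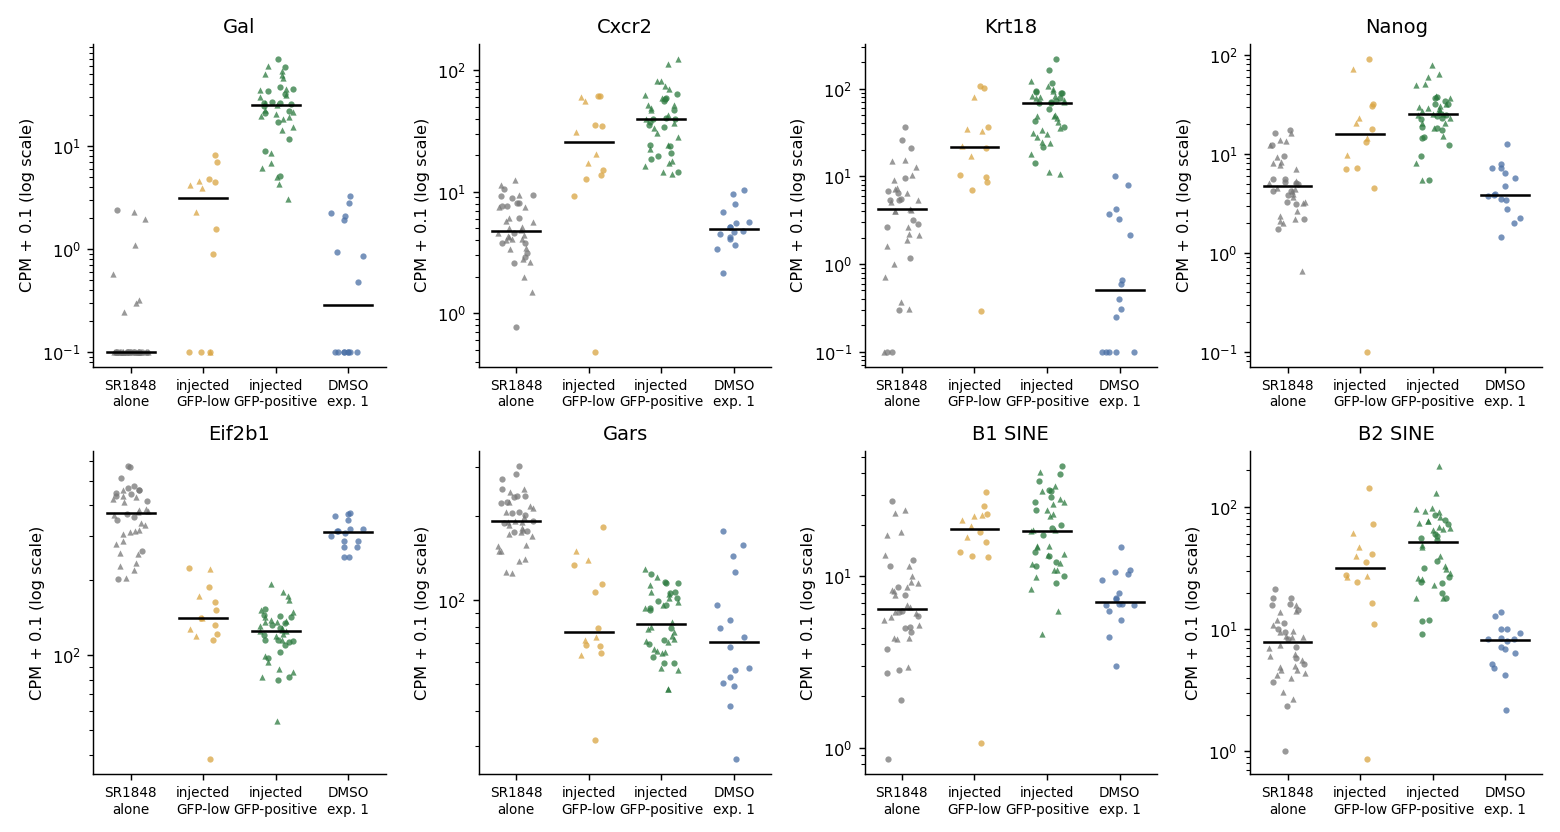
Levels of 6 genes and the B1 and B2 SINE entries in each embryo, as CPM plus 0.1 on a log scale. Circles are experiment 1, triangles experiment 2 and bars the median of each set. Gal and Cxcr2 show no overlap between GFP-positive and SR1848 embryos, and for Cxcr2, Eif2b1, Gars and the SINE entries the GFP-low embryos lie near the GFP-positive ones.

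Promoters were read from RefSeq (GRCm38.p6, 250 bases before to 50 after each start site) and searched for the 9 letters that NR5A2 is known to bind, as TCAAGGTCA, TCAAGGCCA, CCAAGGTCA and CCAAGGCCA on either strand. Of the 52 higher genes named by rule, 38 had a promoter in the table and 1 held the letters. That gene is Amhr2, the receptor of the anti-Müllerian hormone, which ran from 0 to 39.5 CPM (median 4.69) in GFP-positive embryos against 0 to 13.4 (median 0.0977) in SR1848 embryos (log2 fold change 1.88 ± 0.56, edgeR adjusted p = 0.00453). Amhr2 did not pass in experiment 2 alone (1.05, edgeR adjusted p = 0.202). Its sets overlapped, and its median was higher in GFP-low (25.1 CPM) and DMSO embryos (77.9 CPM). The promoters of Amhr2, Gal and Nr0b1 are shown because Amhr2 holds the letters, Gal showed no overlap between the sets and Nr0b1 had no count in any SR1848 embryo. The promoters lie at chr15:102445117-102445416 on the plus strand, chr19:3414495-3414794 on the minus strand and chrX:86191525-86191824 on the plus strand, and are written 5′ to 3′ along the gene. Capitals mark the 9 letters in Amhr2 (first base 233 bases before the start site), and in Gal the shorter letters AAGGCCA on the opposite strand (236 bases before it):
Amhr2: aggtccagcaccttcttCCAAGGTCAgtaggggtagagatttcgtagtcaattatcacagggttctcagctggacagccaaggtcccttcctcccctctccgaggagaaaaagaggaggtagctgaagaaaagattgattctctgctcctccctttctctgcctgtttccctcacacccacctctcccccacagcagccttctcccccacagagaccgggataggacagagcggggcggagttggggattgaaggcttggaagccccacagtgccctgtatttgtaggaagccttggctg
Gal: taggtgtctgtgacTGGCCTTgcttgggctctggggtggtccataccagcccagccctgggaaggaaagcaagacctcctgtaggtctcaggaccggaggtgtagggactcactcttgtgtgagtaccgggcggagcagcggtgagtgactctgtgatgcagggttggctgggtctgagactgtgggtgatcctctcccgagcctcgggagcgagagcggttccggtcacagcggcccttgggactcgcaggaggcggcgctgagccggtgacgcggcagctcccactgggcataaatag
Nr0b1: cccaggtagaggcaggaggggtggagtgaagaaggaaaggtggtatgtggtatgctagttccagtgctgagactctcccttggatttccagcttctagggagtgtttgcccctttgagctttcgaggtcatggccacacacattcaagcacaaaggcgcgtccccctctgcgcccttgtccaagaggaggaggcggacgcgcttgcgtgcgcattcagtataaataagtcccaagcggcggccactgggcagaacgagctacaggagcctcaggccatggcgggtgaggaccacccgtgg
Neither AAGGTCA nor AAGGCCA was in the Nr0b1, Crygs or Cxcr2 window. The 9 letters were in 2.37% of the promoters of higher genes (59 of 2488), in 1.61% of those of lower genes (31 of 1926) and in 2.12% of those of all genes tested (217 of 10231). The 7 shorter letters, chosen after the values were seen, were in 11.25%, 9.19% and 10.16%. All promoters of this length in the table held them in 2.22% and 10.61%, and the overlaps of the 2 letter sets are counted in both.

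The higher genes with the largest fold change that the naming rule picked include Tmsb4x, Krt18 and Bhlhe23. Tmsb4x, thymosin beta 4, which binds actin monomers, ran from 2.80 to 412.5 CPM (median 61.8) in GFP-positive embryos and from 0 to 53.3 (median 4.54) in SR1848 embryos (log2 fold change 3.71 ± 0.41, edgeR adjusted p = 2.38e-12), with 22 of 42 embryos above all SR1848 embryos. Krt18, a keratin of the first epithelium of the embryo, ran from 10.4 to 219 CPM (median 68.7) against 0 to 36.1 (median 4.10), a log2 fold change of 3.48 ± 0.31 (edgeR adjusted p = 1.55e-16). Its partner Krt8 rose by 3.56 ± 0.40 (edgeR adjusted p = 2.95e-12). Bhlhe23, a transcription factor of the bHLH class, had a median of 47.1 CPM against 2.46 (log2 fold change 3.53 ± 0.47), and Klhl41, of the kelch family, 55.2 against 3.79 (3.12 ± 0.38). For each of these genes the sets overlapped. Most of these RNAs were low in DMSO embryos, with medians of 7.32 CPM for Tmsb4x, 0.403 for Krt18, 0 for Bhlhe23 and 2.43 for Klhl41.

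Other higher genes were Wdr66 (median 34.1 CPM against 4.70, log2 fold change 3.11 ± 0.23), Slc37a1 (42.8 against 6.26, 3.02 ± 0.35), Teddm1b (109 against 19.9, 2.97 ± 0.29), the olfactory receptor gene Olfr889 (38.2 against 6.86, 2.89 ± 0.30) and the homeobox gene Lhx6 (38.6 against 3.48, 2.87 ± 0.37), each with an edgeR adjusted p of 2.71e-10 or less. Tet1, which oxidises 5-methylcytosine, differed from them in the DMSO embryos: its median was 27.1 CPM in GFP-positive embryos, 5.68 in SR1848 embryos and 156 in DMSO embryos (log2 fold change 2.88 ± 0.35, edgeR adjusted p = 7.52e-11). GFP-low embryos had more Tet1 than GFP-positive embryos, with a median of 121 CPM (difference -1.38, edgeR adjusted p = 0.00774). For Wdr66, Slc37a1, Teddm1b, Olfr889 and Lhx6 the GFP-low medians were 20.5, 30.4, 33.5, 43.75 and 58.0 CPM. GFP-positive embryos were above GFP-low ones for Slc37a1 and Teddm1b (1.30 and 1.36, edgeR adjusted p = 0.025 and 0.0105). The differences of 0.74, 0.18 and -0.14 for Wdr66, Olfr889 and Lhx6 did not pass (edgeR adjusted p of 0.06955 or more).

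The lower genes with the largest fold change that the naming rule picked include Aldoa, Gapdh and Nudc. Aldoa, fructose-bisphosphate aldolase, ran from 0 to 57.9 CPM (median 27.5) in GFP-positive embryos and from 46.3 to 275 (median 106) in SR1848 embryos (log2 fold change -1.91 ± 0.16, edgeR adjusted p = 4.06e-18), with 40 of 42 embryos below all SR1848 embryos. Gapdh, the next glycolytic enzyme named, fell by 1.68 ± 0.13 (edgeR adjusted p = 6.05e-19), from a median of 217 to 53.3 CPM. Nudc, a partner of the dynein motor, fell by 1.97 ± 0.14 (edgeR adjusted p = 3.41e-21), from 245 to 62.0 CPM, again with 40 of 42 embryos below. Fundc1, a receptor for the removal of mitochondria, fell by 2.22 ± 0.26 (edgeR adjusted p = 1.57e-11). Nono, Ddx1 and Rae1, which act on RNA, fell by 1.66 ± 0.15, 1.71 ± 0.28 and 1.82 ± 0.15, and Actn3, Thop1 and Zscan21 fell by 1.97 ± 0.17, 1.89 ± 0.22 and 1.65 ± 0.21 (edgeR adjusted p of 4.07e-07 or less for each). The remaining 2, Slc34a2 and Ppp1r15a, are taken up with the 2-cell transcripts and the stress genes.

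Nuclear receptors and the partners of NR5A2 come next, since they hold its nearest relatives and known targets. Of 19 tested members (26 listed), 5 were higher and 3 lower (26.3% and 15.8%, beside 25.4% and 17.3% of all genes), and the median log2 fold change was 0.08 against 0.09. Nr0b1, which encodes DAX1, a repressor that binds NR5A receptors, had a count in 24 of 42 GFP-positive embryos and in none of the 40 SR1848 embryos. Its CPM ran from 0 to 62.0 (median 1.28) in GFP-positive embryos, and GFP-low and DMSO embryos stayed at or below 0.254. Over all embryos its level was at least 446-fold higher than the floor of 3 counts in the SR1848 set. Nr0b1 was thus seen in only some of the GFP-positive embryos.

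Esrrb, an estrogen-related receptor of the pluripotency network, ran from 0 to 28.8 CPM (median 7.43) in GFP-positive embryos and from 0 to 7.87 (median 1.80) in SR1848 embryos (log2 fold change 1.85 ± 0.28, edgeR adjusted p = 5.97e-08). It was also above GFP-low embryos, by 1.83 (edgeR adjusted p = 0.0015), and near the DMSO median of 6.63 CPM. Nr2f2, a COUP receptor, rose by 1.49 ± 0.46 (edgeR adjusted p = 0.00583), and the coactivator genes Ncoa2 and Ncoa3 rose by 0.35 ± 0.09 and 0.45 ± 0.09 (edgeR adjusted p = 0.000442 and 8.52e-06). For Ncoa3 the log2 fold change in experiment 1 alone was 0.11 and did not pass (edgeR adjusted p = 0.591). Nr2c1, Nr1d1 and Nr1h2 fell by 0.96 ± 0.19, 0.68 ± 0.14 and 0.29 ± 0.11 (edgeR adjusted p = 1.76e-05, 4.63e-05 and 0.0195).

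Transcription factors of the early embryo were counted next. Of 33 tested members (40 listed), 17 were higher and 5 lower (51.5% and 15.2%, beside 25.4% and 17.3% of all genes), with a median log2 fold change of 0.54. The summed share of the list was smaller, with a median of 0.259% against 0.412%, and 14 of 42 embryos were below every SR1848 embryo and 0 above. Sox17, a factor of the endoderm, ran from 0 to 194.5 CPM (median 17.1) in GFP-positive embryos and from 0 to 9.59 (median 0.563) in SR1848 embryos (log2 fold change 4.66 ± 0.48, edgeR adjusted p = 1.24e-13). Nanog, of the epiblast, ran from 5.32 to 79.3 CPM (median 25.2) against 0.549 to 17.2 (median 4.59), a change of 2.25 ± 0.21 (edgeR adjusted p = 1.77e-15). In each case 34 of 42 embryos were above all SR1848 embryos. Gata2, a factor of the trophectoderm, ran from 4.43 to 154 CPM (median 45.8) against 0 to 29.7 (median 6.77), a change of 2.84 ± 0.33 (edgeR adjusted p = 8.73e-12). Eomes, Obox8, Crxos, Zfp42 and Obox6 were also higher, with changes between 2.135 and 3.83. Eomes had an SR1848 median of 0 CPM and passed the filter on low counts largely through GFP-positive embryos. It was not tested in either experiment alone.

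DMSO embryos separate these genes. In DMSO embryos Sox17 was at 0 in all 16, Nanog had a median of 3.75 CPM and Gata2 4.94, all below the GFP-positive medians. Obox6, Obox8 and Crxos, homeobox genes of zygotic activation, had DMSO medians of 751, 454 and 500 CPM, against 18.0, 20.9 and 7.09 in GFP-positive and 2.19, 1.13 and 1.65 in SR1848 embryos. Their GFP-low medians of 180, 85.5 and 84.7 CPM were above the GFP-positive ones. The differences of GFP-positive from GFP-low embryos were -1.69, -1.06 and -1.34 (edgeR adjusted p = 0.0294, 0.161 and 0.0896), so only that of Obox6 passed. The 5 lower members were Klf17, Obox5, Dppa2, Dppa3 and Sall4. Klf17 ran from 446 to 1569 CPM (median 661) in GFP-positive embryos and from 779 to 2506 (median 1493) in SR1848 embryos (log2 fold change -1.08 ± 0.09, edgeR adjusted p = 4.76e-18), with 31 of 42 embryos below all SR1848 embryos and a DMSO median of 1785. Dppa3 fell by 0.83 ± 0.17 and Dppa2 by 0.91 ± 0.13 (edgeR adjusted p = 2.35e-05 and 9.74e-09), and their DMSO medians of 2874 and 724 CPM were above the GFP-positive medians of 464 and 59.6.

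Transcripts of the 2-cell embryo, the RNAs made in the first large wave of zygotic transcription, showed the widest spread between GFP-positive embryos. Their summed share of counts ran from 0.0283% to 1.24% (median 0.0558%) in GFP-positive embryos, from 0.0428% to 0.622% (median 0.0900%) in SR1848 embryos, from 0.0257% to 1.25% (median 0.674%) in GFP-low embryos and had a median of 0.533% in DMSO embryos. Of the 42 GFP-positive embryos, 12 were below every SR1848 embryo and 8 above every one, 22 were below the SR1848 median and 20 above it. The SD of the log2 share was 1.85 (n = 42) against 1.13 (n = 40) in SR1848 embryos. The GFP-positive set thus held embryos with less of these transcripts than any under inhibitor alone, and embryos at or over the DMSO median. The highest SR1848 embryo, at 0.622%, was over that median as well.

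The test on means and the medians differ for this list. Of 56 tested members (65 listed), 21 were higher and 4 lower (37.5% and 7.14%, beside 25.4% and 17.3% of all genes). The median log2 fold change was 0.74. Yet in 35 of the 56 the median CPM was lower in GFP-positive embryos, among them 8 of the 21 called higher. Zscan4d, of a family that marks the 2-cell stage and shares reads between its copies, is such a gene: it ran from 0 to 934 CPM (median 11.5) against 0.618 to 217 (median 16.7), with a log2 fold change of 1.89 ± 0.57 (edgeR adjusted p = 0.00478). BC061212, of the PRAME family, was higher by both measures, with 0 to 433 CPM (median 15.9) against 0 to 11.5 (median 0.635) and a change of 4.88 ± 0.48 (edgeR adjusted p = 2.07e-14). Slc34a2, a phosphate carrier, was lower, with 0 to 116 CPM (median 5.06) against 0 to 190.4 (median 28.0), a change of -2.40 ± 0.45 (edgeR adjusted p = 4.94e-06). Its DMSO median was 542 CPM. It did not pass in experiment 1 alone (-0.60, edgeR adjusted p = 0.531) or with a GFP minimum of 10 CPM (-0.65, edgeR adjusted p = 0.272).

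Between experiments, the median of 2-cell transcripts moved more than that of any other of the 28 lists: 29 members were higher and 1 lower in experiment 1 (median 2.01), and 8 were higher and 5 lower in experiment 2 (median 0.18). Over all genes, experiment 1 gave 15.1% higher and 10.7% lower of 10929 tested, and experiment 2 gave 19.1% and 17.2% of 11544. The median share was 0.310% against 0.0838% in experiment 1 and 0.0519% against 0.0936% in experiment 2.

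Maternal transcripts were lower. Their share ran from 2.78% to 6.93% (median 4.59%) in GFP-positive embryos and from 4.95% to 9.61% (median 6.88%) in SR1848 embryos, with 28 of 42 embryos below every SR1848 embryo, and the median was 5.02% in GFP-low and 2.18% in DMSO embryos. Of 78 tested members, 44 were lower and 4 higher (56.4% and 5.13%, beside 17.3% and 25.4% of all genes). The median log2 fold change was -0.32, and 22 were lower and 38 higher when scaled to this list itself. Nobox, an oocyte homeobox gene, ran from 21.1 to 208 CPM (median 89.4) against 148 to 499 (median 308) and fell by 1.56 ± 0.12 (edgeR adjusted p = 7.16e-19), towards the DMSO median of 17.7. Nlrp4a fell by 1.05 ± 0.09 (edgeR adjusted p = 9.55e-17). Ccnb1, cyclin B1, fell by 1.46 ± 0.13 (edgeR adjusted p = 5.77e-17), from a median of 1086 to 395 CPM, while DMSO embryos had 2478.

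Genes that remove maternal RNA or control poly(A) tails were lower in 25 and higher in 10 of 61 tested members (median -0.26). That is 41% and 16.4%, beside 17.3% and 25.4% of all genes. Scaled to maternal transcripts, 6 were lower and 28 higher. Dcp1a, of the decapping complex, fell by 1.03 ± 0.09 and Cnot4, of the deadenylase complex, by 1.11 ± 0.11 (edgeR adjusted p = 2.81e-17 and 3.71e-14). Zfp36l1, which binds AU-rich RNA, rose by 2.95 ± 0.40 (edgeR adjusted p = 1.54e-09), from a median of 0.317 to 7.19 CPM.

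**Figure D3:**
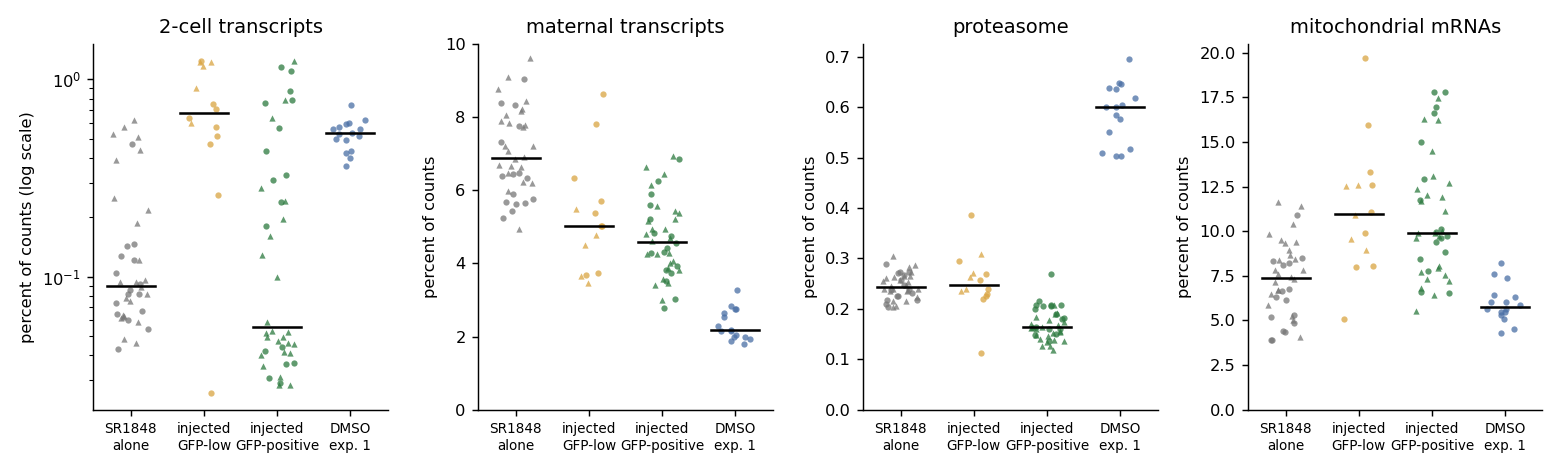
Summed share of counts of 4 gene lists in each embryo, in percent (2-cell transcripts on a log scale). Circles are experiment 1, triangles experiment 2 and bars the median of each set. GFP-positive embryos spread from 0.0283% to 1.24% for 2-cell transcripts and lie below most SR1848 embryos for maternal transcripts and the proteasome.

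The translation lists gave different counts in each experiment. Of 56 translation factors and tRNA synthetases, 23 were lower and 5 higher (median -0.30). That is 41.1% and 8.93%, beside 17.3% and 25.4% of all genes. The counts became 7 and 21 when scaled to maternal transcripts. In experiment 1, 14 were lower and 4 higher (median -0.26), and in experiment 2, 25 and 2 (median -0.36). Gars, glycyl-tRNA synthetase, ran from 47.8 to 129 CPM (median 81.6) against 124 to 302 (median 191), a log2 fold change of -1.14 ± 0.07 (edgeR adjusted p = 5.4e-24), with 41 of 42 embryos below every SR1848 embryo. Eif3i fell by 0.99 ± 0.07 and Eef1a1 by 0.80 ± 0.08 (edgeR adjusted p = 6.93e-20 and 2e-13). Of 82 ribosomal protein genes, 27 were higher and 10 lower (32.9% and 12.2%, median 0.22). Scaled to maternal transcripts, 49 were higher and 1 lower. Their summed share was smaller, with a median of 0.231% against 0.305%. That share was 0.299% against 0.268% in experiment 1 and 0.187% against 0.322% in experiment 2. In experiment 1, 35 of these genes were higher and 1 lower (median 0.83). In experiment 2, 4 were higher and 21 lower (median -0.16), so that both lists had more lower than higher calls in experiment 2. Rpl34 and Rpl39 rose by 1.44 ± 0.22 and 1.71 ± 0.27, and Rpl3 fell by 1.52 ± 0.23 (edgeR adjusted p of 8.73e-08 or less). These families have near-identical copies whose reads are divided between them.

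Nucleolus and ribosome assembly genes were higher in 14 and lower in 14 of 78 tested members (17.9% each, median 0.15). Over all genes the shares were 25.4% and 17.3%. The balance turned with the scaling: 17 higher and 10 lower with DESeq2's median-ratio scaling, 10 and 18 by total counts, and 49 and 4 when scaled to maternal transcripts. Gtpbp4, a nucleolar GTPase, ran from 301 to 2223 CPM (median 819) against 123 to 613 (median 274), a change of 1.75 ± 0.15 (edgeR adjusted p = 1.14e-17). Nip7, a factor of the large subunit, rose by 1.82 ± 0.15 (edgeR adjusted p = 1.38e-17), from a median of 63.1 to 197 CPM. Wdr43, of the small subunit processome, fell by 1.19 ± 0.09 (edgeR adjusted p = 6.92e-19), from 162 to 63.4 CPM, while DMSO embryos had 1029.

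Most of the proteasome subunits that changed fell. Their summed share ran from 0.118% to 0.269% (median 0.164%) in GFP-positive embryos and from 0.203% to 0.305% (median 0.243%) in SR1848 embryos, with 34 of 42 embryos below every SR1848 embryo. GFP-low embryos had a median of 0.248% and DMSO embryos 0.601%. Of 40 tested members, 19 were lower and 6 higher (47.5% and 15%, beside 17.3% and 25.4% of all genes, median -0.27). These became 6 lower and 15 higher when scaled to maternal transcripts. Psmd2 and Psmd4, of the regulatory particle, fell by 1.34 ± 0.14 and 1.23 ± 0.11 (edgeR adjusted p = 3.96e-13 and 1.88e-16). The 6 higher members were Psmb8, Psmb9 and Psmb10, the catalytic subunits of the immunoproteasome, Psme1 and Psme2, its activator, and Psmc6. Psmb8 ran from 0.247 to 16.3 CPM (median 3.33) against 0 to 3.11 (median 0) and rose by 4.22 ± 0.44 (edgeR adjusted p = 1.19e-13). Psmb9, Psmb10, Psme1 and Psme2 had GFP-positive medians of 0.961, 1.29, 1.35 and 3.42 CPM and rose by 3.43 ± 0.59, 2.49 ± 0.50, 1.79 ± 0.56 and 1.83 ± 0.43 (edgeR adjusted p = 8.56e-07, 2.27e-05, 0.006 and 0.00024). GFP-low medians of Psmb10, Psme1 and Psme2 were 8.14, 1.95 and 5.59 CPM. Their DMSO medians were 7.18, 6.70 and 10.3 CPM, so both sets stood above the GFP-positive medians. Psmb8 and Psmb9 had 1.41 and 0 CPM in GFP-low and 0.0905 and 0 in DMSO embryos. Psmb8, Psmb9, Psmb10 and Psme1 had an SR1848 median of 0 and passed the filter on low counts largely through GFP-positive embryos.

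Sensors of foreign RNA and interferon response genes were higher in 9 and lower in 4 of 24 tested members (median 0.49). That is 37.5% and 16.7%, beside 25.4% and 17.3% of all genes. Their summed share was nevertheless smaller, with a median of 0.0811% against 0.137% and 27 of 42 embryos below every SR1848 embryo. Oas1c, an oligoadenylate synthetase gene of the oocyte, ran from 209 to 752.5 CPM (median 404) against 518 to 1537 (median 964) and fell by 1.12 ± 0.09 (edgeR adjusted p = 9.35e-19). Usp18, which removes ISG15, ran from 0 to 21.8 CPM (median 1.69) against 0 to 1.65 (median 0) and rose by 4.37 ± 0.56 (edgeR adjusted p = 3.15e-10). Usp18 was at a median of 0 in GFP-low and DMSO embryos. It passed the filter on low counts through GFP-positive embryos and was not tested in either experiment alone. Irf9, of the complex that drives interferon-stimulated genes, rose by 2.83 ± 0.34 (edgeR adjusted p = 3.42e-11), and its difference from GFP-low embryos was -0.17 (edgeR adjusted p = 0.808).

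Stress genes were mixed, except p53 targets. Of 19 tested p53 targets, 13 were higher and the other 6 did not pass (68.4% higher, beside 25.4% of all genes, median 0.53). Cdkn1a, which encodes the cell cycle inhibitor p21, ran from 8.35 to 180.4 CPM (median 59.2) against 7.42 to 73.2 (median 18.4) and rose by 1.56 ± 0.17 (edgeR adjusted p = 1.48e-12), while DMSO embryos had a median of 109. Pmaip1, which encodes NOXA, rose by 2.97 ± 0.50 (edgeR adjusted p = 4.73e-07), from a median of 0.239 to 13.2 CPM. Tnfrsf10b and Rrm2b rose by 1.25 ± 0.14 and 0.53 ± 0.08 (edgeR adjusted p = 7.5e-12 and 5.56e-08). Against GFP-low embryos, 7 of the 19 were lower, beside 16.1% of all genes. In experiment 2 alone, 8 were higher and 1 lower, beside 19.1% and 17.2% of all genes.

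Unfolded protein and integrated stress genes were higher in 14 and lower in 5 of 33 tested members (median 0.18). That is 42.4% and 15.2%, beside 25.4% and 17.3% of all genes. Ppp1r15a, which encodes the phosphatase subunit GADD34, ran from 0 to 438 CPM (median 26.8) against 40.6 to 762 (median 143) and fell by 1.91 ± 0.32 (edgeR adjusted p = 4.59e-07). It did not pass with a GFP minimum of 10 CPM (-0.59, edgeR adjusted p = 0.209), and DMSO embryos had a median of 411. Atf3 rose by 2.62 ± 0.45 and Ern1 fell by 0.63 ± 0.09 (edgeR adjusted p = 8.25e-07 and 2.08e-08). Heat shock genes were higher in 4 and lower in 8 of 26 (15.4% and 30.8%), which became 12 and 2 when scaled to maternal transcripts. Hspb1 rose by 1.98 ± 0.24, and the chaperone partners Ahsa1 and Stip1 fell by 0.77 ± 0.09 and 1.14 ± 0.14 (edgeR adjusted p of 2.36e-10 or less). Oxidative stress genes were higher in 12 and lower in 3 of 30 (40% and 10%). Fth1, ferritin heavy chain, rose by 1.01 ± 0.11, and G6pdx and Prdx1 fell by 0.90 ± 0.10 and 0.87 ± 0.11 (edgeR adjusted p of 4.68e-10 or less).

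Messenger RNAs encoded by the mitochondrial genome took a larger share. They held 5.50% to 17.8% of counts (median 9.92%) in GFP-positive embryos and 3.90% to 11.6% (median 7.39%) in SR1848 embryos, with 17 of 42 embryos above every SR1848 embryo. GFP-low embryos had a median of 11.0% and DMSO embryos 5.77%. Of the 13 tested, 12 were higher (92.3%, beside 25.4% of all genes) and mt-Co1 did not pass (median 0.73). Their median difference from GFP-low embryos was 0.08. The range of the 12 was 0.36 to 0.94, with mt-Nd1, mt-Cytb and mt-Nd4 at 0.94 ± 0.13, 0.83 ± 0.11 and 0.76 ± 0.11 (edgeR adjusted p of 6.68e-09 or less). Oxidative phosphorylation genes of the nucleus were higher in 17 and lower in 12 of 69 (24.6% and 17.4%, median -0.01). Those shares were near the 25.4% and 17.3% of all genes. Scaled by total counts, 13 were higher and 16 lower. Cox7b rose by 1.97 ± 0.25, and Cox5a and Sdha fell by 1.10 ± 0.11 and 1.04 ± 0.11 (edgeR adjusted p of 4.16e-10 or less). Mitochondrial import genes were higher in 6 and lower in 8 of 28 (21.4% and 28.6%), and in 14 and 3 when scaled to maternal transcripts. Tomm5 rose by 3.11 ± 0.49, and Timm44 and Hspa9 fell by 1.43 ± 0.25 and 0.65 ± 0.10 (edgeR adjusted p of 8.56e-07 or less).

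Lipid and one-carbon enzymes were not called more often in total than all genes (25.4% higher and 17.3% lower). Sterol and fatty acid genes were higher in 8 and lower in 8 of 51 tested (31.4% called), and purine, serine, folate and vitamin enzymes in 8 and 9 of 41 (41.5% called). Scaled to maternal transcripts, these became 26 and 1, and 20 and 1. Msmo1, of cholesterol synthesis, rose by 2.44 ± 0.24, and Cpt1a, which moves fatty acids into mitochondria, by 1.47 ± 0.20 (edgeR adjusted p of 1.62e-09 or less). Msmo1 ran from 17.9 to 725.5 CPM (median 68.4) against 3.64 to 92.5 (median 17.9), and the sets overlapped. Mthfd2 fell by 0.51 ± 0.08 (edgeR adjusted p = 3.84e-08), and Mthfd2l rose by 2.86 ± 0.45 (edgeR adjusted p = 9.27e-08) from a median of 0.186 to 1.51 CPM.

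RNA polymerase II and elongation genes were lower in 18 and higher in 10 of 56 tested (median -0.07). That is 32.1% and 17.9%, beside 17.3% and 25.4% of all genes. Scaled to maternal transcripts, 6 were lower and 29 higher. Polr2c, a polymerase subunit, ran from 586 to 1405 CPM (median 961) against 1277 to 2393 (median 1793) and fell by 0.88 ± 0.05 (edgeR adjusted p = 5.00e-25), with 39 of 42 embryos below every SR1848 embryo. Gtf2f2 and Taf5, of the initiation complex, fell by 1.29 ± 0.14 and 1.54 ± 0.19 (edgeR adjusted p of 1.25e-10 or less). Spliceosome genes were higher in 14 and lower in 15 of 53 (26.4% and 28.3%), and in 34 and 5 when scaled to maternal transcripts. Sf3b1 fell by 1.16 ± 0.13, and Snrnp70 rose by 1.66 ± 0.23 (edgeR adjusted p of 2.4e-09 or less).

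Chromatin and DNA methylation genes were lower in 27 and higher in 7 of 61 tested (median -0.26). That is 44.3% and 11.5%, beside 17.3% and 25.4% of all genes. Scaled to maternal transcripts, 8 were lower and 26 higher. Setdb1, a histone H3 lysine 9 methyltransferase, ran from 11.4 to 67.5 CPM (median 33.4) against 38.9 to 230 (median 106) and fell by 1.60 ± 0.14 (edgeR adjusted p = 2.81e-17). Smarcb1 and Tet3 fell by 1.55 ± 0.16 and 0.66 ± 0.07 (edgeR adjusted p = 8.04e-14 and 2.08e-13). SUMO and ubiquitin-like genes were higher in 6 and lower in 6 of 24 (25% each), and in 17 and 1 when scaled to maternal transcripts. Sumo3 rose by 0.44 ± 0.06, and the SUMO ligase genes Pias1 and Pias4 fell by 0.77 ± 0.10 and 0.79 ± 0.12 (edgeR adjusted p of 9.23e-08 or less).

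Cell cycle and DNA replication genes were higher in 15 and lower in 18 of 63 (23.8% and 28.6%, median -0.05). All genes had 25.4% and 17.3%. Scaled to maternal transcripts, 37 of the list were higher and 7 lower. Pola2, the accessory subunit of DNA polymerase alpha, ran from 702 to 4668 CPM (median 1603) against 198 to 944 (median 469) and rose by 2.06 ± 0.15 (edgeR adjusted p = 3.23e-20), with 36 of 42 embryos above every SR1848 embryo. GFP-low embryos had a median of 1764 CPM and DMSO embryos 285.5. Mcm6, of the replicative helicase, fell by 1.33 ± 0.12 (edgeR adjusted p = 3.18e-16), from a median of 85.0 to 32.6 CPM. Replication-dependent histone genes were higher in 4 (Hist2h2be among them) and lower in 2 of the 34 tested (11.8% and 5.88%). Their summed share was above every SR1848 embryo in all 42 GFP-positive embryos with Hist2h2be counted in, and that share is the one described with GFP.

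**Figure D4:**
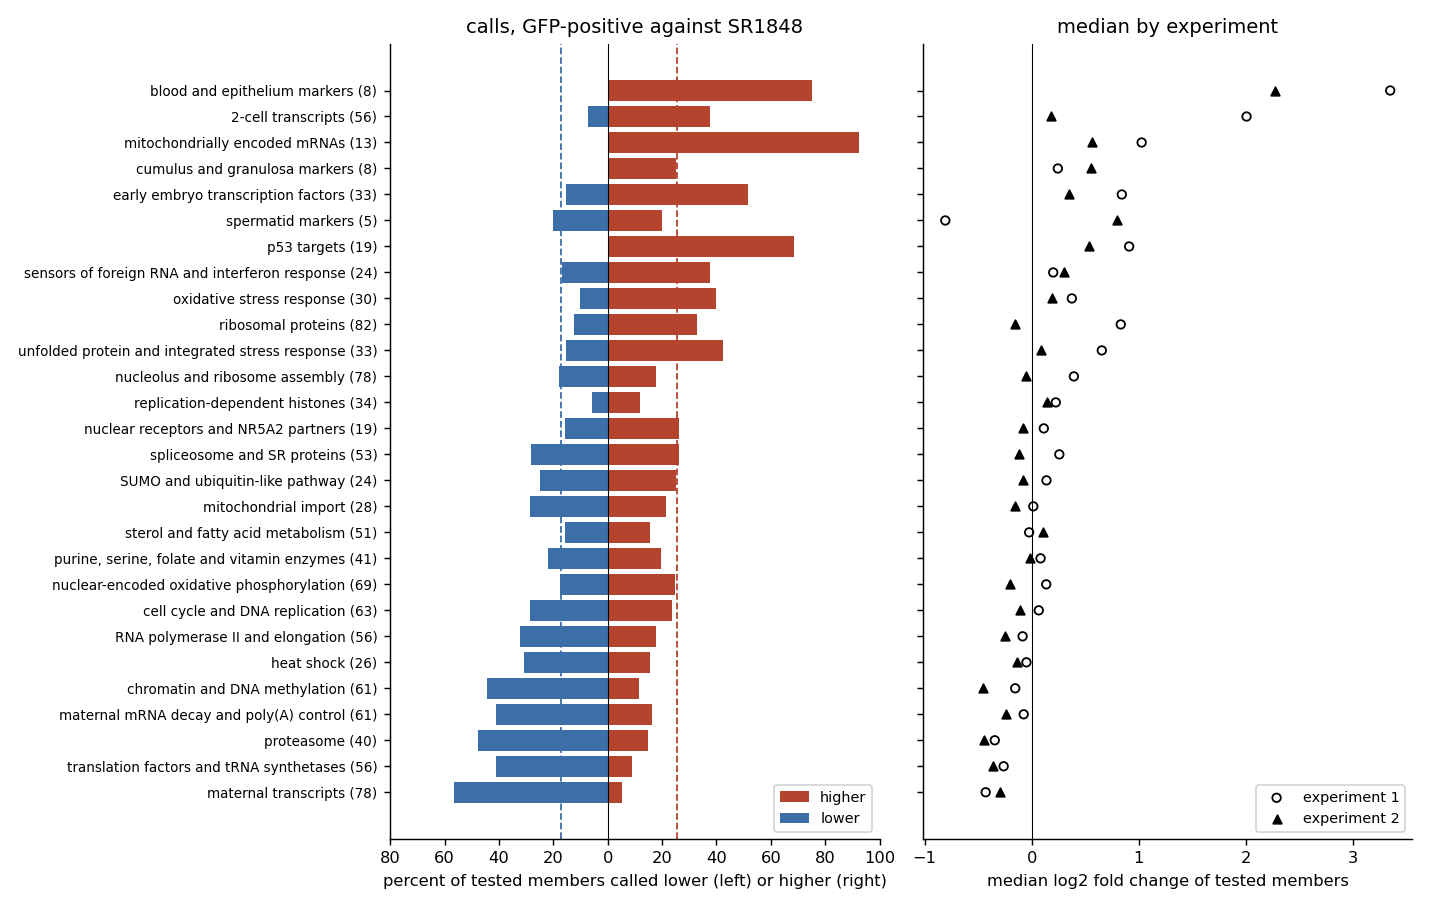
Left, the percent of tested members of each of 28 lists called lower (to the left) or higher (to the right) in GFP-positive embryos, with the number tested in brackets and the background over all genes dashed (25.4% higher, 17.3% lower). Right, the median log2 fold change of the members in each experiment. Maternal transcripts have the largest share of lower calls and mitochondrially encoded mRNAs the largest share of higher calls.

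The table has entries for the short interspersed repeats B1 and B2, which are transcribed by RNA polymerase III and are also part of many messenger RNAs. B2 ran from 9.17 to 218 CPM (median 51.4) in GFP-positive embryos and from 0.917 to 21.2 (median 7.74) in SR1848 embryos, a log2 fold change of 2.75 ± 0.23 (edgeR adjusted p = 6.56e-18), with 35 of 42 embryos above every SR1848 embryo. B1 ran from 4.59 to 43.9 CPM (median 18.3) against 0.737 to 27.3 (median 6.37), a change of 1.324 ± 0.20 (edgeR adjusted p = 4.46e-08). Both passed in each experiment alone, B2 with 2.03 and 3.25 and B1 with 1.73 and 1.07 in experiments 1 and 2. GFP-low embryos had medians of 31.6 CPM for B2 and 18.9 for B1, and the differences from GFP-positive embryos of 0.56 and 0.26 did not pass (edgeR adjusted p = 0.179 and 0.482). DMSO embryos had 8.05 and 7.01. In the authors' deposited table, which compares all injected with all SR1848 embryos per transcript entry, the log2 fold changes were 2.21 for B2 and 0.96 for B1.

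Markers of other cells were read for each embryo. Cumulus and granulosa markers summed to 0.00163% to 0.00932% of counts in GFP-positive embryos and 0.00100% to 0.0258% in SR1848 embryos. Of the 20 markers, 10 had a GFP-positive median of 0, among them Amh, Fshr, Foxl2 and Ptx3 (Ptx3 had a count in 20 GFP-positive embryos and in no SR1848 embryo). Amhr2 and Tnfaip6 were higher, 2 of the 8 tested (25%, beside 25.4% of all genes). Spermatid markers summed to 0.000411% to 0.00658% against 0.000247% to 0.00382%, and 9 of 14 had a median of 0, among them Prm1, Odf1 and Akap4, while Tnp1 had a count in 31 of 42 GFP-positive embryos and in no SR1848 embryo. Blood and epithelium markers summed to 0.00357% to 0.0745% (median 0.0327%) against 0.00230% to 0.0256% (median 0.00594%), and 6 of the 8 tested were higher (75%). Those 6 were Krt8, Krt18, Krt14, Hba-a1, Hba-a2 and Col1a1, while Hbb-bs had no count in any of these embryos and Ptprc and Krt5 had a median of 0. Krt14 had a count in 27 of 42 GFP-positive and in no SR1848 embryos, at least 279-fold over the floor of 3 counts in the set. Hba-a1 and Hba-a2 are near-identical copies that share reads. The part of other cells in these levels was not tested.

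GFP-low embryos carry the same label and are the set most like the GFP-positive one. In 1 fit of the 3 sets over 17207 genes, GFP-low embryos themselves differed widely from SR1848 embryos, with 4892 genes higher and 3154 lower. In the same fit, 2884 genes (16.8%) were higher in GFP-positive than in GFP-low embryos and 2763 (16.1%) were lower. Within experiments, 304 were higher and 599 lower in experiment 1 and 2321 and 2601 in experiment 2. Many genes named above did not differ between these sets by the test, although a p over the threshold does not show that they were alike. For Nanog the difference was 0.30 (edgeR adjusted p = 0.51), for Tmsb4x 0.55 (edgeR adjusted p = 0.475), for Gtpbp4 -0.14 (edgeR adjusted p = 0.661), for Pola2 0.23 (edgeR adjusted p = 0.5) and for Gars -0.01 (edgeR adjusted p = 0.966). Genes higher in GFP-positive embryos than in both other sets by the tests included Gal, Sox17, BC061212, Esrrb, Bhlhe23 and Gata2, with differences from GFP-low embryos between 1.14 and 3.36. Both comparisons share the GFP-positive embryos, and these genes were picked out after their values were seen.

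Hist2h2be apart, the 5 genes named by rule for the largest upward difference from GFP-low embryos did not pass against SR1848 embryos. Samd10 ran from 24.7 to 363 CPM (median 253) in GFP-positive embryos and from 4.32 to 158.5 (median 45.5) in GFP-low embryos, a difference of 2.30 ± 0.28 (edgeR adjusted p = 4.07e-10), while SR1848 embryos had a median of 204 CPM and DMSO embryos 8.60. Sult2a4, Il12rb2, Scin and Gcat had differences between 2.19 and 2.59 and had an edgeR adjusted p of 0.0672 or more against SR1848. On the lower side, Slc34a2, Ppp1r15a, Fundc1, Cdk2ap1 and Ficd had differences between -4.16 and -2.97 (edgeR adjusted p of 0.000114 or less). Ficd, an enzyme of the endoplasmic reticulum, ran from 0 to 434 CPM (median 9.03) in GFP-positive embryos, 0 to 1329 (median 381) in GFP-low embryos and 0 to 213 (median 15.6) in SR1848 embryos, and its DMSO median was 430. By list, 2-cell transcripts were higher than in GFP-low embryos in 1 and lower in 30 of 56 members, ribosomal proteins in 1 and 71 of 82, and nucleolus and ribosome assembly genes in 1 and 58 of 78, beside 16.8% higher and 16.1% lower over all genes.

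Library totals also differed between the sets. The mean log2 total was 22.10 ± 0.22 (SD, n = 42) in GFP-positive embryos and 22.27 ± 0.28 (SD, n = 40) in SR1848 embryos, a difference of -0.17 (2-sided permutation test within experiment, 100000 resamples, adjusted p = 0.00194). In experiment 1 alone it was -0.09 and did not pass (permutation p = 0.201). Thinned to 1000000 counts, GFP-positive embryos had 14190 ± 692 genes detected (SD, n = 42) and SR1848 embryos 12830 ± 670 (SD, n = 40). The difference of 1358 genes had an adjusted p of 2e-05 in the same permutation test, with both measures in the family, and that is the smallest it can give. Within experiments the difference was 1414 and 1321 genes. With the log2 total as a term in the edgeR fit, 3176 genes were higher and 2174 lower.

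The interaction of set and experiment passed for 357 genes (2.58%), of which 219 had opposite signs in the experiments, and 2616 of the 13848 genes tested had an unadjusted p under 0.05. Nptn, which encodes a cell adhesion protein, fell in experiment 1 (log2 fold change -2.24) and rose in experiment 2 (1.48), with an edgeR adjusted p for the difference of 3.96e-05. Wtap, a subunit of the RNA m6A methyltransferase, changed by -1.78 and 0.79 (edgeR adjusted p = 0.000987). Pabpn1, a poly(A)-binding protein of the nucleus, changed by 2.21 and -1.12, and Aprt, of purine salvage, by 1.49 and -1.07 (edgeR adjusted p for the differences = 0.00793 and 0.0218). Tmem72 and Mgat2 rose by 3.17 and 4.16 in experiment 1 and had log2 fold changes of 0.18 and 1.19 in experiment 2, which did not pass alone (edgeR adjusted p for the differences = 0.0195 and 0.0432). Dct, a pigment enzyme, ran from 64.1 to 610 CPM (median 183) in GFP-positive and 10.4 to 234 (median 28.7) in SR1848 embryos, and rose more in experiment 2 (3.22) than in experiment 1 (1.87), with an edgeR adjusted p for the difference of 0.041.

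**Figure D5:**
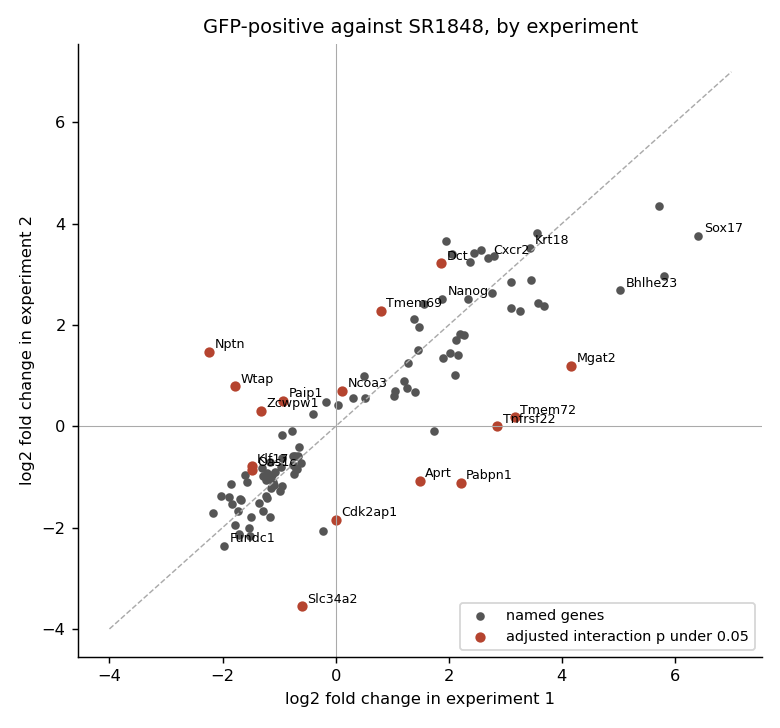
Log2 fold change of GFP-positive against SR1848 embryos in experiment 1 (horizontal) and experiment 2 (vertical) for the 111 named genes tested in both, Hist2h2be left out. The dashed line marks equal change, and the 16 genes in red have an adjusted interaction p under 0.05. Part of the named genes were chosen for the same sign in both experiments, which places them in the same quadrants, while Nptn, Wtap, Pabpn1 and Aprt lie on opposite sides of 0.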

How the data were processed

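Single embryos were sequenced with SmartSeq2. The authors deposited estimated counts per transcript entry from kallisto 0.46.1 after bcl2fastq and Trim Galore 0.6.2, per the submitters' processing notes, which also name R 3.5.1, DESeq2 1.32.0 and the builds mm10 and hg19 without their roles. The authors' deposited table of comparisons holds log2 fold changes and p-values per transcript entry, and only its log2 values for B1 and B2 and its pairing of entries with gene names were used here.

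Of 119358 entries, 116770 (98.9% of counts) were paired with genes of GENCODE M21 (GRCm38) and 892 (0.38%) through the authors' deposited table. Another 1691 (0.557%) could not be paired and stayed out of the tests, and 5 (0.158%), GFP and repeats among them, were kept apart. The estimated counts (26.3% of values not whole at a tolerance of 1e-09) were summed to 36176 genes and rounded. Reads of near-identical genes were divided by kallisto's estimate, which makes members of multigene families uncertain. No library was identical to another, and the highest correlation between libraries was 0.9681.

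Genes were tested with edgeR 4.0.16 (R 4.3.3): TMM scaling, filterByExpr over set and experiment, the quasi-likelihood test with experiment as a term and Benjamini-Hochberg adjustment at 0.05. A prior count of 1 entered only log2 CPM values, and the fits used edgeR's default prior count. The SE of a log2 fold change was its size divided by the square root of the test's F. Genes near 0 in SR1848 embryos entered the tests only where GFP-positive embryos held enough counts, so their p-values are a description. GFP-low embryos were added in another fit of 3 sets, and the set by experiment interaction was tested in a separate fit. CPM are from column totals. Library totals and genes detected were compared by permutation within experiment. The test was checked on simulated counts. DESeq2 1.42.0, other scalings, filters, GFP minimums and subsets were alternatives.

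The members and the 28 gene lists were chosen with earlier results of these data known. Genes are named as the 12 largest fold changes in each direction that passed, whose mean was 3 log2 CPM or more, whose sign matched across the experiments and where no embryo held over 0.3 of its set's summed CPM, leaving out predicted genes, clones and pseudogenes. For each list the 3 genes with the smallest p are named, and for the GFP-low comparison and the interaction the 6 largest in each direction. Other names were chosen after their values were seen. Some genes that the rule picks are not reported here.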

Additional observations from a re-analysis of the deposited data

Results flagged for a closer look

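Among the 9 GFP-low embryos of experiment 1, number 23 stood apart with 144.1 CPM of B2 and number 2 with 8375 genes detected. Each lay farther from its nearest neighbour than Dixon's test allows at 95%. Library totals, GFP, Nr5a2, B1, B2 and genes detected were each checked in both experiments, and chance marks about 1 in 20 groups.

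For 12 named genes the log2 fold change of GFP-positive against SR1848 embryos differed between the experiments by edgeR's interaction test. Experiment 2 minus experiment 1 gave 3.70 for Nptn, 2.565 for Wtap, 1.62 for Zcwpw1, 1.498 for Tmem69, 1.42 for Paip1 and 1.36 for Dct. It gave -3.32 for Pabpn1, -2.97 for Mgat2, -2.97 for Tmem72, -2.965 for Slc34a2, -2.84 for Tnfrsf22 and -2.54 for Aprt.

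In libraries labelled DMSO of experiment 2, which no comparison used, GFP was present in 7 of 10 at 295.5 to 7075 CPM, with a median of 2618.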

How the results depend on the processing

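Against SR1848, 3514 genes were higher and 2389 lower. The higher count was 8100 when scaled to maternal transcripts, 8700 with no filter beyond 1 count (3122 lower), 1840 with a mean of at least 10 CPM (1835 lower, so the excess of higher genes was gone), 1646 in experiment 1 alone and 2200 in experiment 2 alone, and the lower count was 519 with the maternal scaling and 1170 in experiment 1. DESeq2 gave 3960 and 2298, total-count scaling 3054 and 2839, a GFP minimum of 10 CPM (48 embryos) 3787 and 2305, and the low libraries put back 2541 and 2303. Leaving Hist2h2be and mitochondrially encoded genes out, chosen after seeing the data, gave 3273 and 2587.

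Against GFP-low, 2884 genes were higher and 2763 lower, and 304 and 599 in experiment 1 alone. Without GFP-low number 2 of experiment 1, chosen after seeing the data, they were 2759 and 3241. The difference in log2 library total was -0.089 in experiment 1 alone (permutation p = 0.2013).

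The replicate numbers did not pair the embryos: of 26 numbers shared by the sets, 10 had deviations correlated over 0.1 (median 0.014). With the replicate number as a block, 2085 genes were higher and 1787 lower than in SR1848, and 2 and 1 than in GFP-low embryos. No block held both a GFP-positive and a GFP-low embryo, so this setting cannot show how firm the GFP-low comparison is.

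Of the named genes that could be fitted in each setting, 93 kept their call and 4 no longer passed in experiment 1 alone, 95 and 2 in experiment 2 alone, 96 and 4 with the replicate block, 103 and 2 with a GFP minimum of 10 CPM and 98 and 7 with the maternal scaling. Tyms turned from 0.79 to -0.18 with the low libraries put back. The cause was not tested. The Nptn, Wtap and other interactions numbered 357, and 422 and 377 with DESeq2's median-ratio and total-count scaling. Genes at a few CPM rest on few counts in each embryo, which limits their precision.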
